A study of Rattus norvegicus with 24 samples.

Results

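The genes described here encode enzymes of mitochondrial fatty acid oxidation and ketogenesis in rat liver: Cpt1a, Cpt2, Acadm, Acadl, Acadvl, Hadha, Hadhb and Bdh1. They were taken as every probe set whose platform annotation names 1 of these genes and no other. That gave 11 of the 31042 probe sets fitted, 3 for Hadha, 2 for Cpt1a and 1 for each other gene, or 8 of 13438 genes. Where a gene had several probe sets, the brightest on average stood for it. The arrays held liver RNA of 24 male Sprague Dawley rats, 1 rat per array, aged 8 weeks. They formed 4 groups of 6 that received a single intragastric dose: ANIT (alpha-naphthylisothiocyanate, a compound toxic to bile ducts and to hepatocytes) at 50 mg/kg, killed after 24 h; corn oil vehicle, killed after 24 h; ANIT at 50 mg/kg, killed after 120 h; and vehicle, killed after 120 h. The labels name 24 h as peak injury and 120 h as its resolution. All 4 groups were given 10 ml/kg by volume, were fasted for about 18 h before necropsy and received the thymidine analogue BrdU at 100 mg/kg about 2 h before it, so the vehicle rats were fasted rats too.

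Fatty acids reach the mitochondrial matrix as acylcarnitines. Cpt1a makes them at the outer membrane, where malonyl-CoA inhibits it, and Cpt2 turns them back into acyl-CoA inside. Acadvl, Acadl and Acadm are the very long, long and medium chain acyl-CoA dehydrogenases that open each round of beta-oxidation, and Hadha and Hadhb are the subunits of the trifunctional protein that completes the round for long chains. In the fasted liver much of the acetyl-CoA becomes acetoacetate, and Bdh1 reduces acetoacetate to 3-hydroxybutyrate. Fasting is known to raise several of these genes through the nuclear receptor PPAR-alpha.

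The liver label held for the hepatocyte markers: the 9 measured of 10 listed had a summed level of 15.63 to 15.78 in ANIT rats and 15.69 to 15.74 in vehicle rats at 24 h, and of 15.65 to 15.69 and 15.66 to 15.73 at 120 h (log2 of the sum). The arrays differed in spread. The 6 arrays with the lowest SD of values, called narrow here, were 3 vehicle arrays of 24 h and 3 ANIT arrays of 120 h, and no label says whether they form a batch. They also had the 6 highest levels of 9 spiked hybridisation controls. The mean control level was 10.81 ± 0.25 in ANIT rats and 11.16 ± 0.38 in vehicle rats at 24 h (SD, n = 6 each, exact permutation p = 0.091, adjusted p = 0.24 over 8 tests). The log2 3'/5' ratio of beta-actin, a sign of RNA quality, was 3.12 ± 0.07 in ANIT rats and 2.85 ± 0.05 in vehicle rats at 24 h (SD, n = 6 each, exact permutation p = 0.0022, adjusted p = 0.018 over 8 tests). These values stand beside the results they move with.

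At 24 h, 4 of the 8 genes fell in ANIT livers: Bdh1 fell 2.32-fold, Cpt1a 2.09-fold, Acadm 1.43-fold and Hadhb 1.34-fold. Cpt2, Acadl, Acadvl and Hadha did not pass the test, and no gene rose. A gene was called where its adjusted p, from limma with Benjamini-Hochberg adjustment over all 13438 genes, was under 0.05. By that rule 5.31% of all genes were lower in ANIT rats at 24 h. The median change of the 8 genes was -0.32 on the log2 scale, beside 0.00 for all genes. For each of the 4 called genes all 6 ANIT rats lay below all 6 vehicle rats, as for 2.32% of all genes.

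At 120 h, 4 of the 8 genes were again lower in ANIT livers: Bdh1 by 1.64-fold, Cpt1a by 1.34-fold, Hadhb by 1.30-fold and Acadvl by 1.28-fold. Of all genes, 1.51% were called lower at that time. The median change of the 8 genes was -0.38, beside -0.01 for all genes. Cpt1a, Acadl, Hadhb and Bdh1 had all 6 ANIT rats below all 6 vehicle rats, as had 1.58% of all genes. Without the narrow arrays 1 gene, Cpt1a, was called lower at 120 h (all genes 0.387%), and with the band of array SD as a block none was by limma (all genes 1.87%), although all 8 genes had an unadjusted p under 0.05 in the fit of the groups alone. These arrays were liver tissue, so fewer hepatocytes and less RNA per hepatocyte cannot be told apart.

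**Figure D1:**
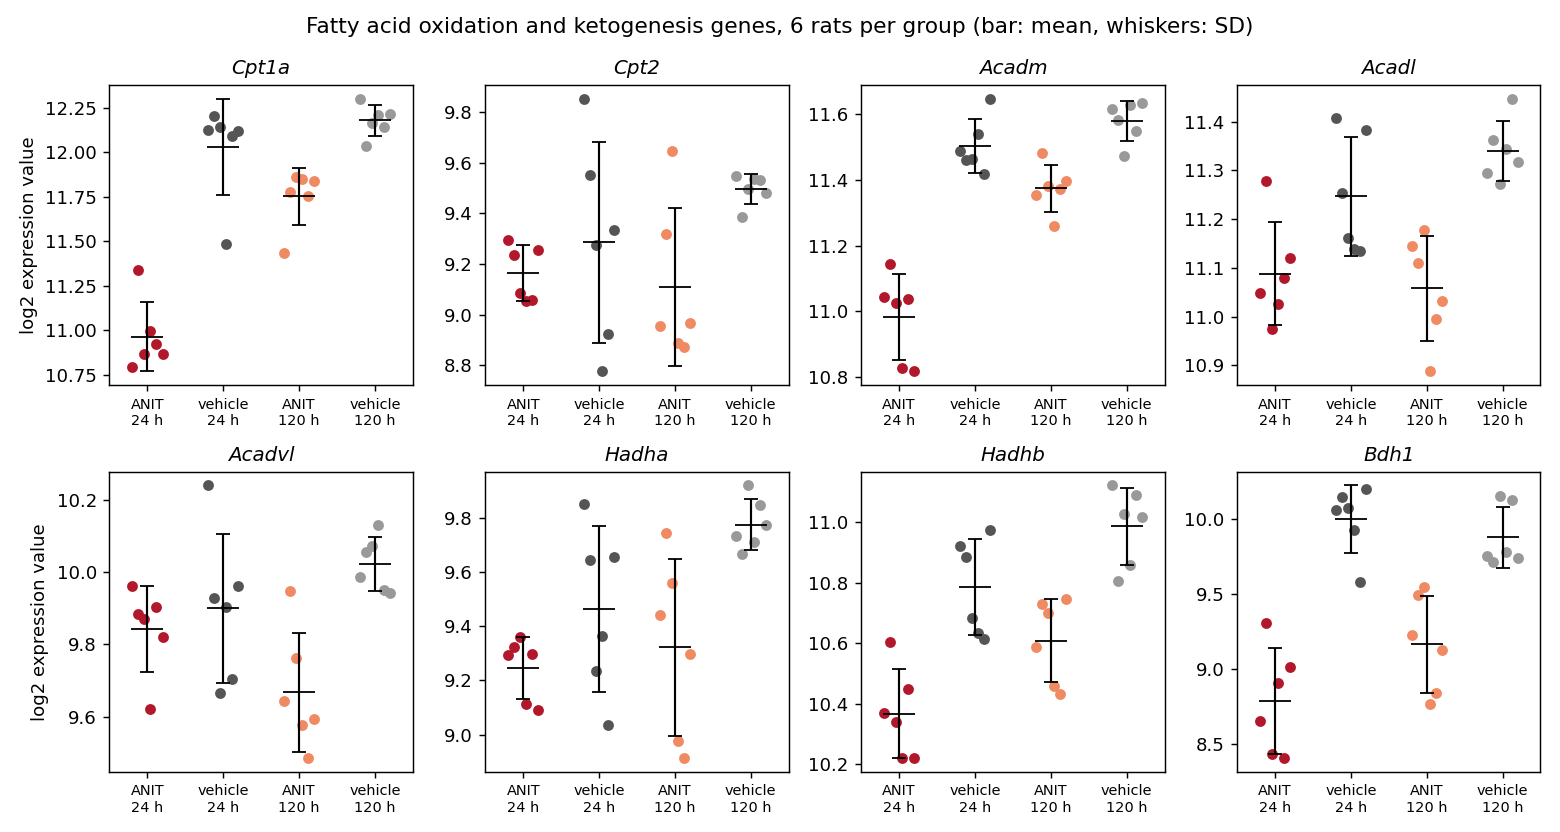
The log2 expression value of each of the 8 genes (vertical axes, 1 scale per panel) in each rat (points), by group along the horizontal axis, with the group mean (horizontal bar) and SD (whiskers, n = 6). At 24 h the ANIT rats lie wholly below the vehicle rats for Cpt1a, Acadm, Hadhb and Bdh1, and the vehicle rats of 24 h scatter more for Cpt2 and Hadha than those of 120 h.

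Cpt1a is the step at which entry into the pathway is controlled. The letters upstream of its start are shown because Cpt1a, with Bdh1, fell most. The region is the 250 bases before the start site in RefSeq's rat assembly GRCr8, at chr1:209995910-209996159 on the plus strand, printed 5' to 3'. Capitals in these sequences mark matches to a repeat of AGGTCA, any base, AGGTCA, which PPAR-alpha binds with its partner, on either strand and with up to 3 mismatches outside the free base. Such a match occurs in 21.0% of 27457 rat promoter windows of this length, and an exact one in 0.0546%. The Cpt1a window has 45.6% G and C and holds no match.
Cpt1a: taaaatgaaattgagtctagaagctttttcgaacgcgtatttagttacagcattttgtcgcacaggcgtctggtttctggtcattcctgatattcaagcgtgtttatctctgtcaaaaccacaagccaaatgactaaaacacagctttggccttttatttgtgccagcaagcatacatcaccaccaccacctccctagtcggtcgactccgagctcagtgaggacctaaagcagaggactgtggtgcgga

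Cpt1a had values of 10.80, 10.89 and 11.34 (lowest, median and highest) in ANIT rats at 24 h, against 11.49, 12.12 and 12.20 in vehicle rats. The groups did not overlap, and the vehicle rat at 11.49 lay apart from the other 5, which were at or above 12.09. The change was -1.06 ± 0.11 on the log2 scale (SE, adjusted p = 1.9e-07). At 120 h the values were 11.44, 11.81 and 11.86 in ANIT rats and 12.03, 12.19 and 12.30 in vehicle rats, again without overlap, a change of -0.43 ± 0.11 (adjusted p = 0.046). The call at 120 h was lost when any 1 of 18 of the 24 arrays was left out, with changes of -0.46 to -0.36 over all left-out arrays and an adjusted p of up to 0.10. It held only without vehicle rats 1, 4 or 5 of 24 h, ANIT rats 1 or 2 of 24 h, or ANIT rat 3 of 120 h.

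Both probe sets of Cpt1a fell at 24 h by like amounts, and at 120 h they differed. The probe set used for the gene, 1386946_PM_at, changed by -1.06 at 24 h and -0.43 at 120 h. The other, 1367836_PM_at, had values of 5.83, 6.07 and 6.57 in ANIT rats and 6.90, 7.19 and 7.76 in vehicle rats at 24 h, a change of -1.16 ± 0.17 (adjusted p = 2.6e-05 over 31042 probe sets). At 120 h it had 6.33, 6.57 and 7.02 in ANIT rats and 7.32, 7.73 and 8.16 in vehicle rats, a change of -1.07 ± 0.17 (adjusted p = 0.0013). All ANIT rats lay below all vehicle rats on this probe set at both times. Within rats, the difference between the probe sets was larger in ANIT than in vehicle rats by 0.65 ± 0.14 at 120 h (SE, exact permutation p = 0.0022, adjusted p = 0.018 over 8 tests), and by 0.10 ± 0.15 at 24 h (exact permutation p = 0.52, adjusted p = 0.69). So the size of the Cpt1a change at 120 h depended on which probe set was read. Over probe sets rather than genes, the one used for the gene missed the threshold at 120 h (adjusted p = 0.066).

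**Figure D2:**
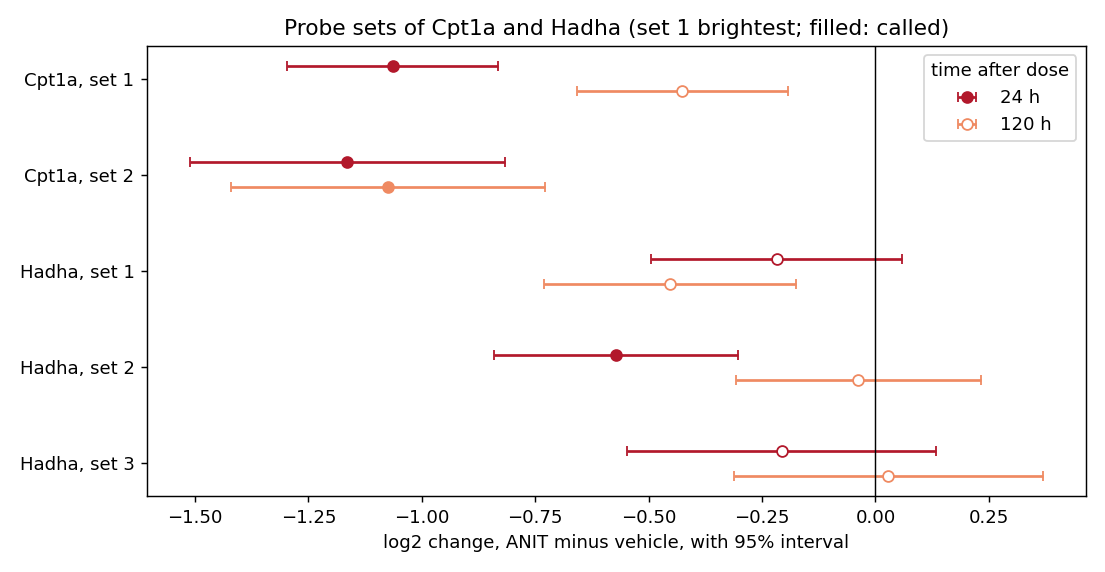
Log2 change between ANIT and vehicle rats (horizontal axis, points with 95% intervals) of the 2 probe sets of Cpt1a and the 3 of Hadha, at 24 h and 120 h, with filled points called over 31042 probe sets. Set 1 is the one used for the gene. Both Cpt1a sets fell by about the same amount at 24 h, and at 120 h they changed by -0.43 and -1.07.

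Cpt2 did not pass the test at either time. Its values were 9.05, 9.16 and 9.30 in ANIT rats and 8.78, 9.30 and 9.85 in vehicle rats at 24 h, and the vehicle rats spread over 1.08 log2 units and enclosed the ANIT rats. The change was -0.12 ± 0.15 (adjusted p = 0.59). At 120 h the values were 8.87, 8.96 and 9.65 in ANIT rats and 9.39, 9.51 and 9.55 in vehicle rats. There 5 ANIT rats lay below every vehicle rat and 1 lay above them all, and the change was -0.39 ± 0.15 (adjusted p = 0.20).

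Among the dehydrogenases, Acadm fell at 24 h. Its values were 10.82, 11.03 and 11.15 in ANIT rats and 11.42, 11.48 and 11.65 in vehicle rats, with no overlap, a change of -0.52 ± 0.07 (adjusted p = 9.3e-06). At 120 h it had 11.26, 11.38 and 11.48 in ANIT rats and 11.47, 11.60 and 11.63 in vehicle rats, a change of -0.21 ± 0.07 that did not pass (adjusted p = 0.16). The groups overlapped there by 1 rat on each side.

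Acadl, the long chain enzyme, had 10.98, 11.06 and 11.28 in ANIT rats and 11.14, 11.21 and 11.41 in vehicle rats at 24 h. The groups overlapped, and the change of -0.16 ± 0.08 did not pass (adjusted p = 0.16). At 120 h its values were 10.89, 11.07 and 11.18 in ANIT rats and 11.27, 11.33 and 11.45 in vehicle rats. They did not overlap, and the change of -0.28 ± 0.08 lay just outside the threshold (adjusted p = 0.052).

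Acadvl, the very long chain enzyme, had 9.62, 9.88 and 9.96 in ANIT rats and 9.67, 9.92 and 10.24 in vehicle rats at 24 h, which overlapped almost fully (change -0.06 ± 0.10, adjusted p = 0.71). At 120 h it had 9.48, 9.62 and 9.95 in ANIT rats and 9.94, 10.02 and 10.13 in vehicle rats, so that 5 of the ANIT rats lay below every vehicle rat. The change of -0.35 ± 0.10 was called at an adjusted p of 0.049, and the call was lost without any 1 of 18 arrays (changes of -0.41 to -0.32, adjusted p up to 0.13). It held only without vehicle rats 1, 3 or 5 of 24 h, ANIT rat 4 of 24 h, or ANIT rats 2 or 3 of 120 h.

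The upstream window of Acadvl, at chr10:55236706-55236955 of GRCr8 on the minus strand, is shown because it held the closest match to the PPAR-alpha repeat among the 7 genes with an entry in the promoter table. The match, AGGTCAGTGGTCA with 1 mismatch, covers the bases 17 to 5 before the start on the strand of the gene. A match with at most 1 mismatch occurs in 0.386% of all windows. AGGTCA alone, in either orientation, occurs in 13.7% of windows. Acadvl holds 2, 1 of them inside the match, and the other 6 genes hold none.
Acadvl: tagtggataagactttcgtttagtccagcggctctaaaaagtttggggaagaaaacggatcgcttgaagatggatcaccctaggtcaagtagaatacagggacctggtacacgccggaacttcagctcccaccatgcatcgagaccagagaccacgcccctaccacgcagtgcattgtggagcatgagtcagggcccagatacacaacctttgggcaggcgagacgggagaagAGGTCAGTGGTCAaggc

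Hadha and Hadhb encode partner subunits and start back to back. In GRCr8 their start sites on chromosome 6 lie 300 bases apart on opposite strands, and 200 bases are common to the 2 upstream windows. The Hadha window is chr6:31907551-31907800 on the plus strand and the Hadhb window chr6:31907501-31907750 on the minus strand, so the sequence of one is in large part the reverse complement of the other. Both are shown for that reason. Each holds the same 13 bases in capitals, a match to the repeat with 3 mismatches, which lies 195 to 183 bases before the Hadha start and 118 to 106 bases before the Hadhb start. GGGCGG, the GC box, occurs in either orientation 1 time in the Hadha window and 2 times in that of Hadhb, and in 32.4% of all windows.
Hadha: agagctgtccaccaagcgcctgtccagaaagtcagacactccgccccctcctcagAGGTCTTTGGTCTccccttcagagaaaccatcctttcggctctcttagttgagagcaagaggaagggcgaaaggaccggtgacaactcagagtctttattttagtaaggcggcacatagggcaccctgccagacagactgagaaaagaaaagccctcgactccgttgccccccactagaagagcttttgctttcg
Hadhb: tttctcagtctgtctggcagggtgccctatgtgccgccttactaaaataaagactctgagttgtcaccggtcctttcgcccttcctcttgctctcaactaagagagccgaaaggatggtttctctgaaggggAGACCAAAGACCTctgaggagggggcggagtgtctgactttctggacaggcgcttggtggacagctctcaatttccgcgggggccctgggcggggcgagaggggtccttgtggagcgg

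Hadhb, the beta subunit with the thiolase activity, fell at both times. At 24 h its values were 10.22, 10.35 and 10.60 in ANIT rats and 10.61, 10.78 and 10.97 in vehicle rats, a change of -0.42 ± 0.09 (adjusted p = 0.0019). The highest ANIT rat and the lowest vehicle rat nearly touched. At 120 h it had 10.43, 10.64 and 10.75 in ANIT rats and 10.81, 11.02 and 11.12 in vehicle rats, again without overlap, a change of -0.38 ± 0.09 (adjusted p = 0.031). The call at 120 h was lost without vehicle rats 1, 3, 5 or 6 or ANIT rats 4 or 5 of that time (changes of -0.41 to -0.34 over all left-out arrays, adjusted p up to 0.087).

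Hadha, the alpha subunit with the hydratase and dehydrogenase activities, did not pass on the probe set used for it. That set, 1370164_PM_at, had 9.09, 9.29 and 9.36 in ANIT rats and 9.03, 9.50 and 9.85 in vehicle rats at 24 h, a change of -0.22 ± 0.13 (adjusted p = 0.28). The vehicle rats again enclosed the ANIT rats. At 120 h it had 8.91, 9.37 and 9.74 in ANIT rats and 9.67, 9.75 and 9.92 in vehicle rats, a change of -0.45 ± 0.13 (adjusted p = 0.081).

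The other probe sets of Hadha differed from it. 1394857_PM_at had 6.11, 6.32 and 6.55 in ANIT rats and 6.58, 6.91 and 7.20 in vehicle rats at 24 h, without overlap, a change of -0.57 ± 0.13 (adjusted p = 0.0040 over probe sets), but -0.04 ± 0.13 at 120 h (adjusted p = 0.93). 1394763_PM_at, at values of 4.16 to 5.11 over all groups, changed by -0.21 ± 0.17 and 0.03 ± 0.17 (adjusted p = 0.45 and 0.96). Of 6 within-rat comparisons between Hadha probe sets, none passed over the 8 tests, and the smallest exact permutation p was 0.015 (adjusted p = 0.060). Over all 11 probe sets of the 8 genes, 6 were called lower at 24 h and 3 at 120 h, beside 3.96% and 0.699% of all probe sets.

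Read from the brightest probe set of each gene, Bdh1 had the largest change of the 8 at both times. At 120 h the other Cpt1a probe set changed more (-1.07), as did the mean of both Cpt1a sets (-0.75). Its values at 24 h were 8.41, 8.78 and 9.31 in ANIT rats and 9.58, 10.07 and 10.20 in vehicle rats, a change of -1.21 ± 0.16 (adjusted p = 3.8e-06). At 120 h they were 8.77, 9.18 and 9.55 in ANIT rats and 9.71, 9.77 and 10.15 in vehicle rats, a change of -0.71 ± 0.16 (adjusted p = 0.015). The groups did not overlap at either time, and both calls held without any 1 of the 24 arrays. Without the narrow arrays the change at 120 h was -0.46 and did not pass (adjusted p = 0.22). The upstream window of Bdh1, chr11:82842637-82842886 of GRCr8 on the minus strand, is shown as that of the gene with the largest change. It holds 1 GC box and a match to the repeat with 3 mismatches, 240 to 228 bases before the start.
Bdh1: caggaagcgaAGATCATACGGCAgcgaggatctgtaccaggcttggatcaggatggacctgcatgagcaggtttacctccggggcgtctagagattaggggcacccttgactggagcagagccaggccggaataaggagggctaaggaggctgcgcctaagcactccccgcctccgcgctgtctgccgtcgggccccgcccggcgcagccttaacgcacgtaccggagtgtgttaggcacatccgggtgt

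The windows of Cpt2 and Acadm held no match to the repeat at 3 mismatches. Cpt2 held 3 GC boxes and Acadm none. Acadl is named only.

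The change was smaller at 120 h than at 24 h for Cpt1a and Acadm. The difference, the effect at 120 h minus the effect at 24 h, was 0.64 ± 0.16 for Cpt1a (adjusted p = 0.0083) and 0.31 ± 0.10 for Acadm (adjusted p = 0.039). By the same test 3.33% of all genes had a higher effect at 120 h and 14.3% differed in either direction. For Cpt1a this rested on 1 probe set, since the other had a difference of 0.09 ± 0.24 (adjusted p = 0.83 over probe sets). The Acadm call was lost without any 1 of 11 arrays (adjusted p up to 0.078), namely vehicle rats 3, 4 or 6 and ANIT rats 4 or 6 of 24 h, and vehicle rats 2, 3 or 5 and ANIT rats 2, 5 or 6 of 120 h. It was also lost without the narrow arrays (0.38, adjusted p = 0.093). Bdh1 had a difference of 0.50 ± 0.22 that did not pass (adjusted p = 0.13), and with the spiked control level in the model it was 0.77 ± 0.19 and passed (adjusted p = 0.0079, with 13% of all genes called). For Acadvl the difference ran the other way, -0.30 ± 0.13 (adjusted p = 0.14).

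Between the vehicle groups, 120 h against 24 h, none of the 8 genes was called by limma, and 2 of them, Hadha and Hadhb, had an unadjusted p under 0.05. The changes ran from -0.12 for Bdh1 to 0.31 for Hadha, and 1 of all genes was called, 0.00744%.

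The genes did not fall by equal amounts. Each pair was compared by the within-rat difference of its log2 values, with exact permutation tests adjusted over 56 tests, 28 pairs at each of 2 times; the smallest p that 6 against 6 rats can give is 0.0022. At 24 h, 16 pairs had unequal changes. Cpt1a fell more than each other gene but Bdh1, with differences from -0.54 against Acadm (95% interval -0.86 to -0.23, exact permutation p = 0.0087, adjusted p = 0.026) to -1.01 against Acadvl (-1.38 to -0.63, exact permutation p = 0.0022, adjusted p = 0.010). Between Cpt1a and Bdh1 the difference was 0.15 (-0.22 to 0.51, exact permutation p = 0.42, adjusted p = 0.54). Bdh1 fell more than each of the other 6, by 0.69 against Acadm to 1.15 against Acadvl (exact permutation tests, adjusted p = 0.010 to 0.021).

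Within beta-oxidation proper the enzymes also differed at 24 h. Acadm fell more than Acadl (difference -0.36, interval -0.52 to -0.21, exact permutation p = 0.0022, adjusted p = 0.010) and more than Acadvl (difference -0.46, interval -0.66 to -0.27, exact permutation p = 0.0043, adjusted p = 0.016). Hadhb fell more than Acadl by 0.26 and more than Acadvl by 0.36 (adjusted p = 0.010 and 0.016, exact permutation tests). The subunits Hadha and Hadhb differed by 0.20 (0.02 to 0.38), which did not pass (exact permutation p = 0.039, adjusted p = 0.087).

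At 120 h 6 pairs had unequal changes. In 5 of them Bdh1 fell more, than Cpt2, Acadm, Acadl, Acadvl and Hadha, by 0.26 for Hadha to 0.51 for Acadm. The other was Cpt1a against Acadm (-0.22, interval -0.40 to -0.04, exact permutation p = 0.017, adjusted p = 0.044). Without vehicle rats 3 or 5 of 120 h 1 pair passed, and without the narrow arrays no pair passed at either time. That left 6 against 3 rats, for which the exact test gives coarser p-values, so it cannot show that the changes were equal.

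The level of the spiked controls moved with these genes. Within groups, the mean of the 8 genes had a correlation of -0.74 with the control level over 24 arrays, which share the table's normalization. With the control level in the model, 7 of the 8 genes fell at 24 h, since Cpt2 (-0.32 ± 0.11, adjusted p = 0.042), Acadl (-0.23 ± 0.07, adjusted p = 0.016) and Hadha (-0.42 ± 0.09, adjusted p = 0.0015) joined the 4, beside 10.5% of all genes called lower. Acadvl did not pass there (-0.17 ± 0.08, adjusted p = 0.13). The same 7 were called without the narrow arrays (all genes 5.45%) and with the band of array SD as a block (9.86%). At 120 h the control level brought the number to 6, since Acadl (-0.25 ± 0.06, adjusted p = 0.020) and Hadha (-0.37 ± 0.09, adjusted p = 0.014) joined, beside 3.13% of all genes. With the ratio for beta-actin as the covariate instead, 4 genes were called at 24 h (all genes 3.31%), 2 at 120 h (0.871%) and none for the difference between times by limma (3.26%). In the fit of the groups alone that difference had an unadjusted p under 0.05 for 4 genes. At 24 h the beta-actin ratio was 2.98 to 3.18 in ANIT rats and 2.77 to 2.91 in vehicle rats, without overlap. As a covariate it can hardly be told apart from ANIT at that time, and calls over all genes went from 2451 to 907. For a call lost with it at 24 h, here or below, ANIT and RNA quality cannot be told apart. The part of either measure in these changes was not tested.

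**Figure D3:**
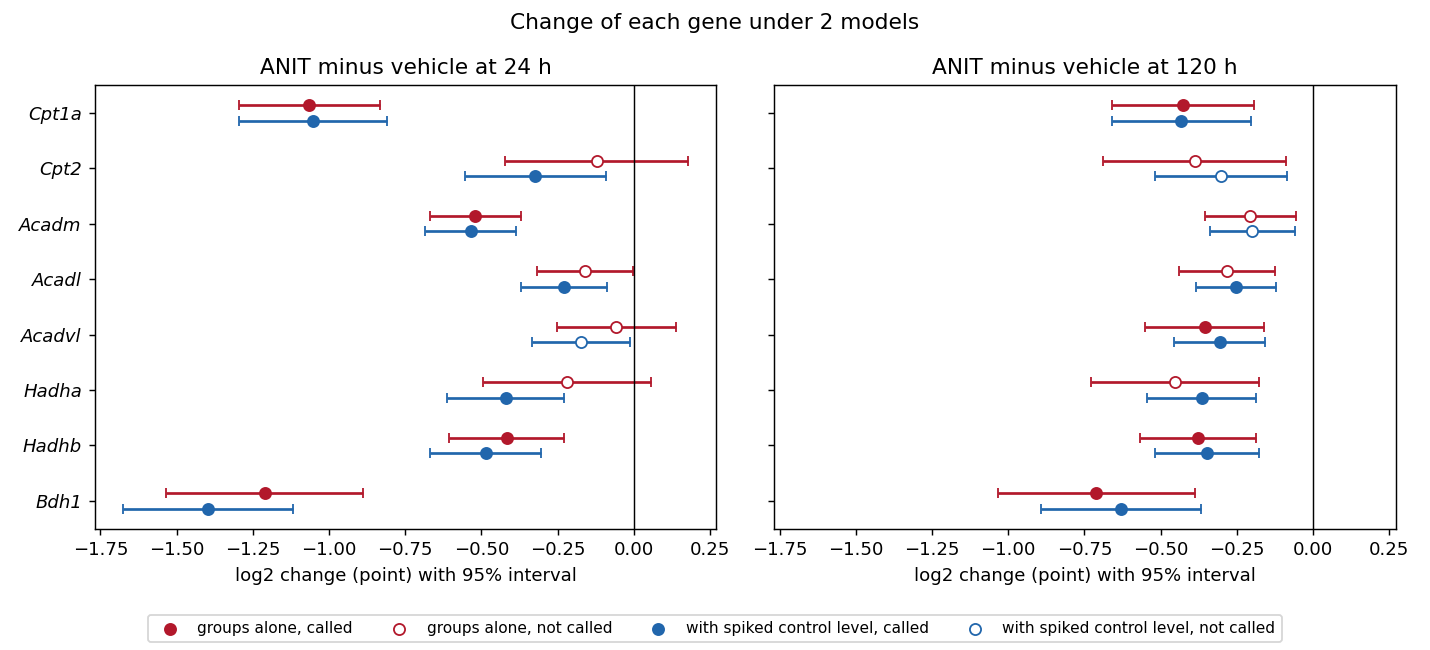
Log2 change of each gene between ANIT and vehicle rats (horizontal axis, points with 95% intervals) at 24 h (left) and 120 h (right), from the groups alone (red) and with the spiked control level in the model (blue), with filled points called over 13438 genes. The interval narrows and moves away from 0 with the control level for Cpt2, Acadl and Hadha at 24 h, and stays near -1.06 for Cpt1a.

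Rats of each group were also set side by side by their mean deviation over the 8 genes from the vehicle mean of that time. It was -0.56, -0.50 and -0.26 (lowest, median and highest) in ANIT rats and -0.21, 0.02 and 0.22 in vehicle rats at 24 h. At 120 h it was -0.57, -0.42 and -0.20 in ANIT rats and -0.08, 0.00 and 0.05 in vehicle rats. At each time every ANIT rat lay below every vehicle rat of that time. Among arrays of like spread, all 8 genes were lower in ANIT rats: at 24 h by a median log2 change of -0.46 over 3 ANIT and 2 vehicle rats with middle spread and by -0.61 over 3 ANIT and 1 vehicle rat with wide spread, and at 120 h by -0.26 over 3 ANIT and 2 vehicle rats with wide spread. The narrow arrays held no ANIT rat of 24 h and no vehicle rat of 120 h. The vehicle rats of 24 h with wide or middle spread had the highest mean deviations of their group (0.22, 0.11 and 0.13). The vehicle rats of 24 h on narrow arrays had -0.06, -0.18 and -0.21. So the bands of 24 h set ANIT rats against the higher vehicle rats, and the share of all genes was not counted within bands.

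**Figure D4:**
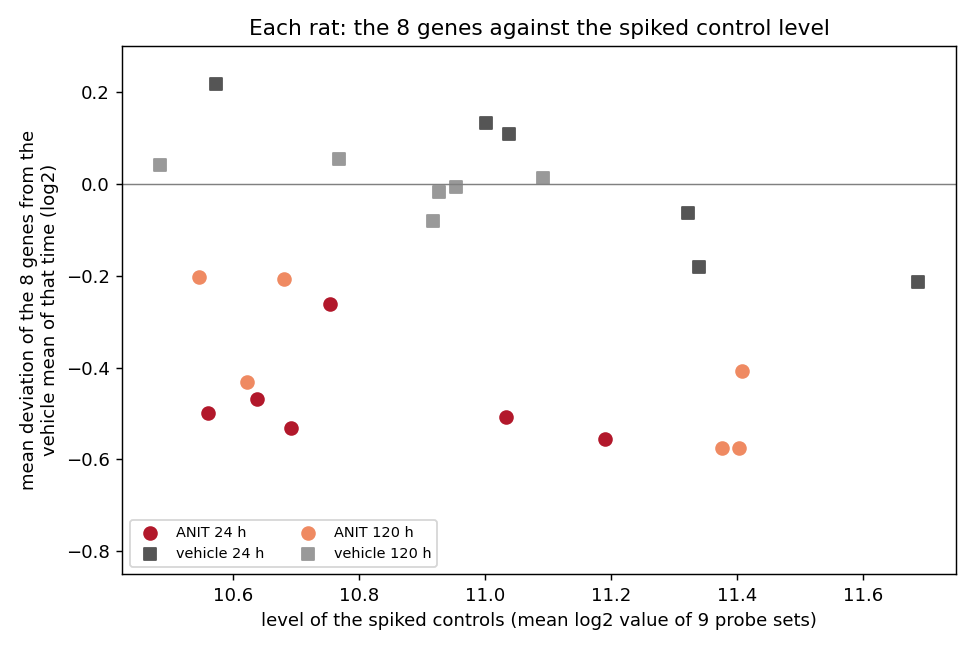
Mean deviation of the 8 genes from the vehicle mean of the same time (vertical axis, log2) against the level of 9 spiked controls (horizontal axis, mean log2 value), 1 point per rat, circles for ANIT and squares for vehicle. The vehicle rats of 24 h lie lower at higher control levels, and each ANIT rat lies below every vehicle rat of its time. Above a control level of 11.19 at 24 h there are only vehicle rats, and above 11.09 at 120 h only ANIT rats.

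Within groups and over 24 arrays, Hadha varied with Acadvl (r = 0.81) and Hadhb (r = 0.75), and with the control level taken out these values were 0.55 and 0.74. For Cpt1a the r with the others ran from -0.02 with Acadvl to 0.47 with Cpt2 and Hadhb, and with the control level taken out it was 0.04, 0.76 and 0.56 with these 3 genes, of which 0.76 was the highest of the 28 pairs. Outside the gene lists, the genes most like the mean of the 8 within groups were Usp38 (r = 0.89), a deubiquitinase, Dhrs4 (0.87), a peroxisomal carbonyl reductase, Rab11b (0.85), a vesicle GTPase, Rbpjl2 (0.85) and Mgll (0.84), the monoacylglycerol lipase. Dhrs4 fell at 24 h (-0.52, adjusted p = 0.00057), Rbpjl2 rose (0.45, adjusted p = 0.045) and Mgll fell at 120 h (-0.61, adjusted p = 0.039). With the control level taken out their r was 0.62 to 0.79.

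Other enzymes of the mitochondrial pathway were lower at 24 h as well. Of 30 measured of 33 listed, 13 fell, 1 rose and 16 did not pass, with a median of -0.24. Of all genes, 5.31% were called lower and 12.9% higher at 24 h. At 120 h 3 pathway genes fell, Slc22a5, Crat and Eci1, and none rose by limma, with a median of -0.21. Of all genes, 1.51% were called lower at 120 h. Slc22a5, the plasma membrane carnitine carrier, averaged 6.23 ± 0.30 in ANIT rats and 7.35 ± 0.50 in vehicle rats at 24 h (SD, n = 6 each), a change of -1.13 ± 0.19 (adjusted p = 9.7e-05), and changed by -0.79 ± 0.19 at 120 h (adjusted p = 0.024). Crat, carnitine acetyltransferase, changed by -0.95 ± 0.16 (adjusted p = 7.8e-05) and by -0.62 ± 0.16 at 120 h (adjusted p = 0.037). With bands of array SD as block the changes at 120 h were -0.42 for Slc22a5, -0.41 for Crat and -0.40 for Eci1 (adjusted p = 0.13, 0.13 and 0.17), and none of the 3 was called without the narrow arrays by limma (adjusted p = 0.11, 0.27 and 0.16). The call at 120 h was also lost without any 1 of 5 arrays for Slc22a5, 8 for Crat and 9 for Eci1, all of them of 120 h: ANIT rats 4, 5 or 6 and vehicle rat 3 for each, with vehicle rat 5 for Slc22a5 and Eci1, and ANIT rat 1 and vehicle rats 1, 2 or 6 for Crat and Eci1. Crat and Eci1 were lost at 120 h with equal medians too (adjusted p = 0.071 and 0.069), and under the beta-actin covariate (0.088 and 0.084). Eci1 changed by -0.21 at 120 h as the mean of its probe sets (adjusted p = 0.23).

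Fatty acids are activated to acyl-CoA before Cpt1a acts on them. Of 6 activating genes measured, 3 fell, Acsl3 rose, and Acsl5 and Slc27a5 did not pass at 24 h (0.16 and -0.02, adjusted p = 0.42 and 0.92). Of all genes, 5.31% were called lower and 12.9% higher at that time. A dimmer probe set of Acsl5 rose by 0.48 (adjusted p = 0.019 over probe sets). The list of 11 genes for activation and the carnitine shuttle had a median of -0.10. Acsl1 averaged 11.29 ± 0.31 in ANIT rats and 12.41 ± 0.05 in vehicle rats at 24 h (SD, n = 6 each), a change of -1.12 ± 0.10 (adjusted p = 2e-08). Slc27a2, a fatty acid transporter and very long chain acyl-CoA synthetase, changed by -0.51 ± 0.07 (adjusted p = 8.9e-06) and Acsl4, a synthetase for polyunsaturated acids, by -0.44 ± 0.07 (adjusted p = 5.3e-05). Acsl3, a synthetase linked to lipid droplets, rose by 1.01 ± 0.20 (adjusted p = 0.00072), and changed by 0.77 with the beta-actin ratio as covariate (adjusted p = 0.14). Slc25a20, the carnitine-acylcarnitine translocase between Cpt1a and Cpt2, changed by 0.17 ± 0.19 (adjusted p = 0.56), and its sign turned with the control level in the model (-0.14).

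Malonyl-CoA, the inhibitor of Cpt1a, is made by acetyl-CoA carboxylases and removed by Mlycd. Acaca, the cytosolic carboxylase of lipogenesis, averaged 8.89 ± 0.25 in ANIT rats and 7.80 ± 0.29 in vehicle rats at 24 h (SD, n = 6 each), a rise of 1.10 ± 0.13 (adjusted p = 1.2e-06), with all ANIT rats above all vehicle rats, as for 5.54% of all genes. Mlycd fell by 0.35 ± 0.11 on the log2 scale (adjusted p = 0.022), a call lost without vehicle rat 2 or ANIT rats 5 or 6 of 24 h, with equal medians (adjusted p = 0.15) and with beta-actin's ratio as covariate (adjusted p = 0.11). Neither Acaca nor Mlycd passed at 120 h (adjusted p = 0.49 and 0.10). Acacb, the other carboxylase, had low means of 4.08 in ANIT rats and 3.98 in vehicle rats at 24 h. It changed by 0.09 ± 0.12 at 24 h (adjusted p = 0.62) and by -0.04 at 120 h (adjusted p = 0.90). A dimmer probe set of Acaca changed by 0.08 at 24 h (adjusted p = 0.64 over probe sets).

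Among the later steps, 5 of 8 enzymes from hydration to thiolysis fell at 24 h, beside 5.31% of all genes called lower. Hadh, the short chain 3-hydroxyacyl-CoA dehydrogenase, changed by -0.71 ± 0.10 (adjusted p = 9.2e-06) and Ech1, the dienoyl-CoA isomerase, by -0.94 ± 0.12 (adjusted p = 2.7e-06). Decr1, Eci1 and Hsd17b10 fell by 0.42, 0.54 and 0.30 on the log2 scale, while Acaa2, the 3-ketoacyl-CoA thiolase, changed by -0.21 ± 0.11 (adjusted p = 0.21), and its dimmer probe set by -0.80 (adjusted p = 0.0022 over probe sets). Acads, the short chain dehydrogenase, changed by -0.32 ± 0.11 (adjusted p = 0.046) and Etfdh, which passes the electrons to ubiquinone, by -0.39 ± 0.12 (adjusted p = 0.025). The Acads call was lost without any 1 of 15 arrays (changes of -0.36 to -0.27, adjusted p up to 0.089), and held only without vehicle rats 2 or 5 of 24 h, vehicle rat 3 of 120 h or any ANIT rat of 120 h. The Etfdh call was lost without vehicle rat 6 or ANIT rats 1 or 6 of 24 h. Of 4 measured ketone body genes Acat1, which joins acetyl-CoA units, fell (-0.36 ± 0.12, adjusted p = 0.038). That call was lost without any 1 of vehicle rats 1, 2, 3, 4 or 6 or ANIT rats 3, 4 or 6 of 24 h (adjusted p up to 0.090) and with the mean of its probe sets (-0.28, adjusted p = 0.17). After a shift of all arrays to equal medians the calls of Acads, Etfdh, Acat1 and Eci1 at 24 h were lost (adjusted p = 0.24, 0.13, 0.18 and 0.055), and that of Eci1 also with the beta-actin ratio as covariate (adjusted p = 0.098).

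Genes of oxidation outside mitochondria fell in part, beside 5.31% of all genes called lower at 24 h. Of 8 peroxisomal genes measured, 3 fell at 24 h: Ehhadh, the peroxisomal bifunctional enzyme (-1.30 ± 0.17, adjusted p = 4.2e-06), Crot, carnitine octanoyltransferase (-1.29 ± 0.18, adjusted p = 8.7e-06), and Abcd3, a fatty acyl-CoA carrier (-0.34 ± 0.07, adjusted p = 0.0013). Ehhadh was lower at 120 h too (-0.83 ± 0.17, adjusted p = 0.0087), a call lost with bands of array SD as block (-0.57, adjusted p = 0.078) and without the narrow arrays (-0.69, adjusted p = 0.086). The 24 h call of Abcd3 was lost with the beta-actin ratio as covariate (adjusted p = 0.057). Cyp4a1, a fatty acid omega-hydroxylase, changed by -0.68 ± 0.15 (adjusted p = 0.0016), 1 of 3 measured, and by -0.45 with the beta-actin ratio as covariate (adjusted p = 0.27).

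Of 17 measured genes that mark mitochondria without acting in this pathway, 3 rose at 24 h, beside 12.9% of all genes called higher, namely Idh3g of the citric acid cycle (0.63 ± 0.12), Cs, citrate synthase (0.44 ± 0.10), and Tomm20, an import receptor (0.44 ± 0.12), none fell by limma, and the median was 0.19. All 3 calls were lost with the beta-actin ratio as covariate (adjusted p = 0.083, 0.11 and 0.23), and those of Cs and Tomm20 also without the narrow arrays (adjusted p = 0.056 and 0.15). At 120 h none was called by limma and the median was -0.10.

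**Figure D5:**
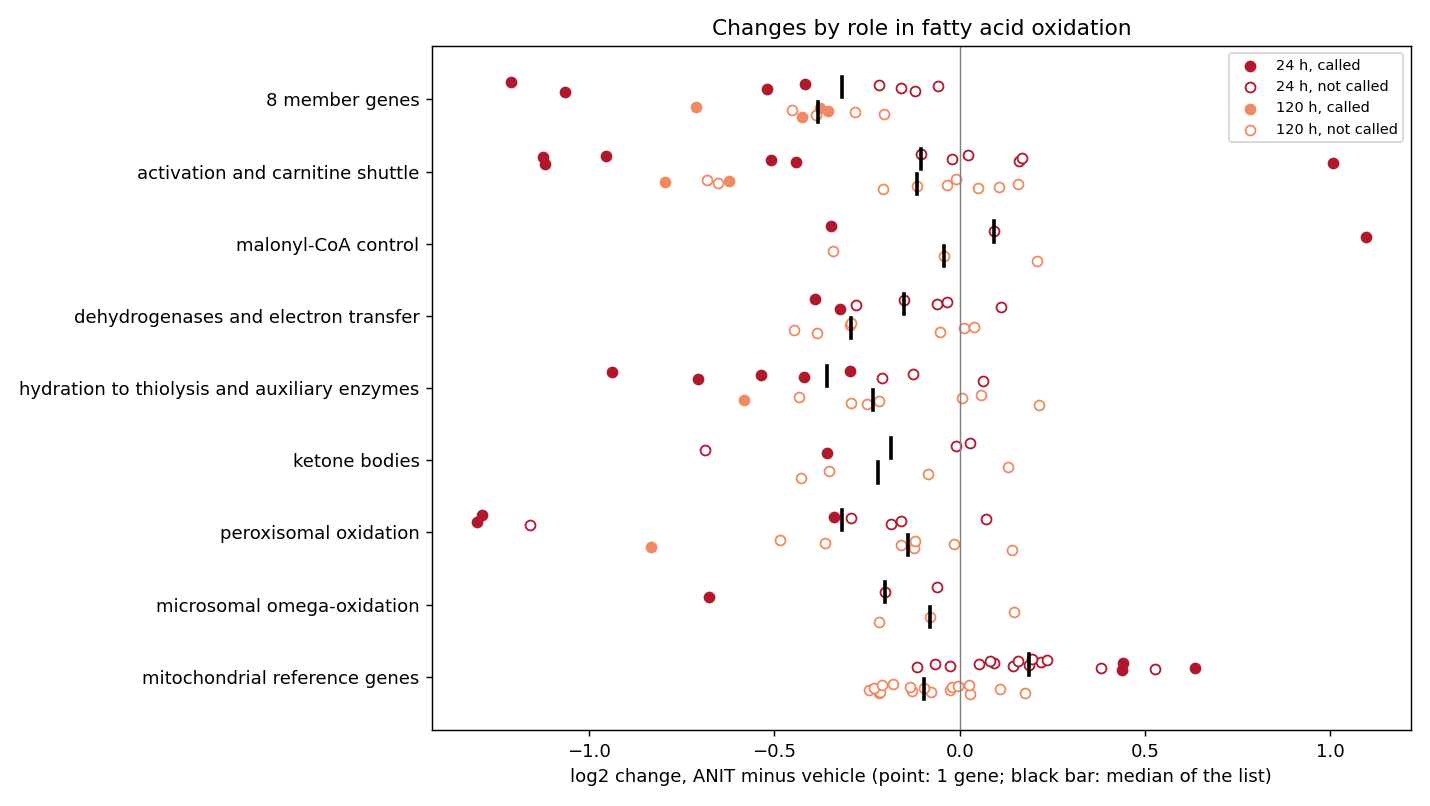
Log2 change between ANIT and vehicle rats (horizontal axis) of the 8 genes and of 8 lists of genes by role (rows), 1 point per gene, at 24 h (dark) and 120 h (light), with filled points called and black bars at the median of each list. Filled points of 24 h lie left of 0 in each list but the mitochondrial reference genes, where 3 lie right of it, and Acsl3 and Acaca lie near 1.

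Among 15 regulators measured, 3 fell and 1 rose at 24 h, beside 5.31% of all genes called lower and 12.9% called higher. Nr1h4, the bile acid receptor FXR, changed by -1.16 ± 0.20 (adjusted p = 0.00014), Creb3l3, a liver factor of the fasting response, by -0.42 ± 0.10 (adjusted p = 0.0030), and Pdk4, the fasting-induced kinase that inhibits pyruvate dehydrogenase, by -1.38 ± 0.32 (adjusted p = 0.0035). Hnf4a, a hepatocyte factor, rose by 0.31 ± 0.09 (adjusted p = 0.019), and the mean of its 3 probe sets changed by -0.12. Its dimmer probe sets changed by -0.32, called lower (adjusted p = 0.044 over probe sets), and by -0.35 (adjusted p = 0.33). The call of the rise was lost without vehicle rat 3 or ANIT rats 1 or 6 of 24 h, without the narrow arrays (adjusted p = 0.16), with the 12 arrays of 24 h alone (0.060) and with the beta-actin ratio as covariate (0.069). With that covariate the calls of Creb3l3 and Pdk4 were lost too (adjusted p = 0.12 and 0.056). Ppara, at a mean of 4.75 in ANIT rats and 4.67 in vehicle rats, changed by 0.08 ± 0.12 (adjusted p = 0.66) and Ppargc1a, at 4.14 and 4.25, by -0.11 ± 0.15 (adjusted p = 0.62). Fgf21, a hormone of the fasting liver, fell at 120 h (-1.52 ± 0.30, adjusted p = 0.0076) and changed by 0.80 ± 0.30 at 24 h (adjusted p = 0.068). The fall at 120 h was not called without the narrow arrays (-1.55, adjusted p = 0.074). At 24 h a rise was called under 4 alternatives, with equal medians (0.88, adjusted p = 0.040), control level (1.01, 0.020), array SD (1.03, 0.011) and bands as block (0.85, 0.036), and without ANIT rat 3 of 24 h.

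Some markers of other cells moved at the same times. Of all genes, 5.31% were called lower and 12.9% higher at 24 h, and 272 of 13438 were called in either direction at 120 h. Of 5 neutrophil markers 2 rose at 24 h, S100a8 and S100a9, with a median of 0.03 over the list, and of 7 cholangiocyte markers 2 rose at 120 h. The summed level of 5 measured neutrophil markers was 8.45 to 9.25 in ANIT rats and 7.55 to 8.43 in vehicle rats at 24 h (log2 of the sum), and that of 7 cholangiocyte markers was 8.06 to 8.67 in ANIT rats and 7.73 to 8.06 in vehicle rats at 120 h. The summed lymphocyte markers were 7.35 to 7.58 in ANIT rats and 7.55 to 7.89 in vehicle rats at 24 h, where 2 of 6 fell, and those of 4 pancreatic acinar markers 7.44 to 8.06 in ANIT rats and 8.14 to 8.64 in vehicle rats, where 1 rose and 1 fell (median -0.04). Of 6 macrophage markers 2 rose at 24 h and 1 at 120 h, with sums of 11.39 to 11.69 in ANIT rats and 11.39 to 11.60 in vehicle rats at 24 h. Of 6 stellate cell markers 1 fell at 24 h, with sums of 9.99 to 10.84 in ANIT rats and 10.48 to 10.97 in vehicle rats. Of 5 endothelial markers 1 rose and 2 fell, and of 4 adipocyte markers 1 rose. Of the hepatocyte markers 2 of 9 rose, Hnf4a among them, and none fell by limma at 24 h, and none was called by limma at 120 h. A dimmer probe set of Hnf4a was called lower at 24 h (-0.32, adjusted p = 0.044 over probe sets). Of 7 pericentral hepatocyte markers 3 fell and 1 rose at 24 h, and of 10 periportal ones 1 fell and 1 rose. Their part in the changes of the 8 genes was not tested.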

How the data were processed

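RNA from 24 livers was measured on 1-colour arrays, 1 rat each, in 4 groups of 6 taken from the labels. The deposited values are log2 expression values of 31139 probe sets, made by the authors with RMA and Partek per the submitters' processing notes; no source used here gives versions or settings. They were used as deposited, from 2.34 to 13.5, without 97 control probe sets. Gene names came from the platform annotation: 19068 probe sets named 1 gene, 573 several and 11498 none listed. Each of 13438 genes was read from its brightest probe set on average.

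A model of the 4 groups was fitted with limma 3.58.1 in R 4.3.3 (lmFit, eBayes), with Benjamini-Hochberg adjustment and calls at 0.05. Only 6 arrays per group limit the precision. On simulated data of 13438 genes it recovered 59% of log2 changes of -0.5 and 92% of -1, with 7 false calls. Named genes were the 8 members, in each list the 3 genes of smallest p at 24 h and 2 at 120 h, 12 fixed genes, and 5 genes outside the lists most like the members' mean; the text names a part of these. Acsl3, Hsd17b10 and Hnf4a were named after their values were seen. Members and lists were chosen with earlier results of these data known. Motifs were counted on both strands of RefSeq promoter windows (GRCr8), which held 7 of the 8 genes. Replicate numbers only name rats. Alternatives were another normalization, covariates, blocks, left-out arrays, other probe set rules and other eBayes settings. Figures used Python and matplotlib.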

Additional observations from a re-analysis of the deposited data

Results flagged for a closer look

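In 3 of 32 groups of 6 rats, 1 rat lay far from the others, all for Cpt1a. Chance flags about 1 in 20 such groups. ANIT rat 2 of 24 h was high at 11.34, the next being 10.99. Vehicle rat 4 of 24 h was low at 11.49, the next being 12.09. ANIT rat 1 of 120 h was low at 11.44, the next being 11.75. Without ANIT rat 1 of 120 h the change of Cpt1a at that time was -0.36 (adjusted p = 0.099).

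The effect of ANIT differed between 120 h and 24 h for Cpt1a by 0.64 (adjusted p = 0.0083) and for Acadm by 0.31 (adjusted p = 0.039), by a limma test of the difference itself. For Cpt1a the dimmer probe set, 1367836_PM_at, gave 0.09 (adjusted p = 0.83).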

How the results depend on the processing

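No paired analysis was possible because the labels give the groups no shared replicate numbers. The calls of Cpt1a, Acadm, Hadhb and Bdh1 at 24 h held under every alternative run and without any 1 array. Apart from left-out arrays, Hadha was called lower at 24 h under 7 alternatives and not under 5, and at 120 h under 4 and not under 8. Acadl was called lower at 24 h under 5 and not under 7, and at 120 h under 7 and not under 5. Members called at 24 h were 7 in place of 4 with the control level, with bands of array SD as block and without the 6 narrow arrays. Of all genes, 10.5%, 9.86% and 5.45% were called lower under these settings, in place of 5.31%. At 120 h members called were 2 in place of 4 after a shift of all arrays to equal medians, with the actin ratio and with only the 12 arrays of that time. They were 1 without the narrow arrays and 0 with the band as a block (limma, where 8 had an unadjusted p under 0.05 in the groups alone). Over all genes, 143 were called in either direction with that shift and 176 with those 12 arrays, in place of 272. Lower calls were 0.871% of all genes with the actin ratio, 0.387% without the narrow arrays and 1.87% with the band, in place of 1.51%. Calls of the difference between times were 1 in place of 2 with the median shift (Cpt1a), with the mean of a gene's probe sets (Acadm) and with the control level and beta-actin ratio together. In the last, Cpt1a (0.47, adjusted p = 0.19) and Acadm (0.40, adjusted p = 0.065) were lost and Bdh1 was gained (0.87, adjusted p = 0.031). With the beta-actin ratio alone there were 0, and Cpt1a had 0.47 (adjusted p = 0.31) and Acadm 0.39 (adjusted p = 0.16). Member probe sets called at 120 h were 6 in place of 3 with another quantile normalization, 7 with the control level, 5 with dim probe sets left out, and 1 with the beta-actin ratio or without the narrow arrays. Among all genes, 460 were called at 120 h with another quantile normalization and 674 with the control level, in place of 272. The share of all probe sets under these settings was not counted. Pathway genes called lower at 24 h were 8 in place of 13 with the median shift, and those called higher 0 in place of 1 with the beta-actin ratio, alone or with the control level, and 2 with the mean of probe sets. Pathway genes called lower at 120 h were, in place of 3, 7 with another quantile normalization, 1 with the median shift or the beta-actin ratio, 9 with the control level or array SD, 8 with control level and beta-actin ratio, 0 with the band block or without the narrow arrays, 5 with the mean of probe sets, and 6 with dim genes left out or eBayes with trend and robust. Unequal pairs without the narrow arrays were 0 in place of 16 at 24 h and 0 in place of 6 at 120 h, and 12 at 120 h with the mean of probe sets. The counts of 0 came from fewer rats, for which the exact test gives coarser p-values. A pair could then pass the adjustment only if many pairs reached the smallest possible p together.

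Leaving out 1 array gave 4 to 4 members at 24 h, 1 to 5 at 120 h and 1 to 3 for the difference between times, 6 to 6 and 1 to 5 member probe sets, 10 to 13 and 0 to 7 pathway genes called lower, and 16 to 20 and 1 to 8 unequal pairs. Signs turned for values that did not pass: Acadvl at 24 h was 0.019 with the median shift and -0.10 to 0.011 with 1 array left out, the last without vehicle rat 1 of 24 h; Slc25a20 at 24 h was -0.14 with the control level, -0.16 with beta-actin, -0.095 with array SD, -0.23 with control level and beta-actin, -0.19 with the band block and -0.11 without the narrow arrays; Ppargc1a was 0.010, 0.025 and 0.053 with control level, beta-actin and both. Hnf4a was -0.12 with the mean of probe sets, the called rise being 0.31. The difference between times was -0.070 for Hadhb with the median shift. For Cpt2 it was 0.022 with the control level, 0.018 with array SD, 0.18 with the band block and 0.23 without the narrow arrays. For Hadha it was 0.055 with the control level, 0.060 with beta-actin, 0.071 with array SD, 0.15 with both covariates, 0.23 with the band block, 0.28 without the narrow arrays and 0.18 with the mean of probe sets. For Acadl it was 0.069 and 0.064 with the band block and without the narrow arrays. Between vehicle groups, the same settings gave -0.020 and -0.084 for Cpt2 and -0.0023 and -0.0084 for Acadl, and Acadvl was -0.020 without the narrow arrays. The cause of these moves was not tested. On simulated data of this size, with few changed genes and independent noise, 59% of log2 changes of -0.5 at 24 h were recovered. Smaller changes can be missed, and the share recovered in the real data can differ.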
